A study of Arabidopsis thaliana with 12 samples.

Results

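EXPA7 (AT1G12560), EXPA18 (AT1G62980), AT1G30870 (PER7) and AT1G34510 (PER8) are genes of the root hair cell wall, and their levels were followed in sorted ground tissue cells of the Arabidopsis root. They were found by symbol or locus in the platform's probe-to-gene table. All 4 were matched, each to 1 probe set, among 13513 probe sets with 1 gene. They were chosen for where they are known to be expressed, since RNA of epidermal hair cells should be scarce in a sort of ground tissue.

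Root hairs are outgrowths of single epidermal cells that take up water and nutrients, and they elongate by tip growth, in which the wall is loosened and rebuilt at the tip. Alpha expansins such as EXPA7 and EXPA18 loosen the wall without cutting its polymers, and both genes are known markers of hair-forming epidermal cells. Class III peroxidases such as PER7 and PER8 are secreted enzymes that make and use reactive oxygen in the wall, where they can both stiffen and loosen it. The ground tissue, which is the cortex and the endodermis, lies beneath the epidermis and forms no hairs.

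The groups were J0571 plants with UAS-driven BLJ (the BLJ line), with UAS-driven JKD (the JKD line), with UAS-driven SCR (the SCR line), and J0571 alone (the control), all of ecotype C24 and otherwise wild type. J0571 is an enhancer trap whose GAL4 activates UAS transgenes in the ground tissue and whose GFP allows these cells to be sorted, and BLJ, JKD and SCR encode transcription factors that act in that tissue. Each group had 3 biological replicates on 1-colour ATH1 arrays, from sorted cells of root tips cut at 5 days, which the labels count once after imbibition and once after germination. All groups carried the J0571 insertion, the factors were driven in the cells that the trap marks, and the labels do not say how many independent transformants each line stands for.

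The values were intensities that the authors made with MAS5, here quantile-normalized between arrays and kept on a linear scale with no stated unit. On that scale the median probe set was at 0.826, the 5th percentile at 0.653 and the 90th percentile at 2.21. Some arrays were labelled in 1 cycle and others in an extra cycle, and the labels do not tie the arrays to either, so this could not be used as a batch. Of the genes that should be present, SGN1 (AT1G61590) and GSO1, a kinase and a receptor kinase of the endodermal barrier, were bright on every array, between the 93.1 and 97.9 percentile of probe sets. AT1G09750, listed as a cortex gene, lay between the 65.6 and 90.6 percentile. Among the other measured cortex genes, AT1G62500 lay between the 25.7 and 49.3 percentile, AT1G62510 between 43.0 and 57.3, and AT3G21670 between 51.5 and 74.1. The endodermal gene EN7 (AT4G28100) lay between 57.2 and 73.1. The ranges of these dimmer markers overlap with those of the root hair wall genes given below. CASP1, MYB36 and the SCR transcript are unnamed here and were not used.

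Control 3 stood apart from the other controls in all 4 root hair wall genes, and each comparison of these genes with the control group is therefore given with and without it. The array was thus singled out by the values of the same genes. Tests of genes from the other lists are given with control 3 in the fit only. The same array had the lowest value of the cortex gene AT1G09750, 0.995, against 1.49 to 2.33 on the other 11 arrays. It was also high in heat shock genes: the mean log2 value of 5 measured genes reached 1.52 for control 3, 1.32 for BLJ 1 and 1.65 for BLJ 3. For the other arrays it lay between 0.61 and 1.05. The part of these differences in the results below was not tested.

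EXPA7 was dim on most arrays and highest on control 3. Its values were 0.868, 0.912 and 0.928 in BLJ cells, 0.780, 0.765 and 0.760 in JKD cells, 0.707, 0.678 and 0.759 in SCR cells, and 0.863, 0.816 and 1.11 in control cells. Every JKD and SCR array lay below every BLJ and control array, while the BLJ and control arrays overlapped. The group means were 0.902 ± 0.0313 for BLJ, 0.769 ± 0.0104 for JKD, 0.715 ± 0.0410 for SCR and 0.930 ± 0.157 for the controls (SD, n = 3 each).

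EXPA18, the other expansin known from hair-forming cells, showed the same order of lines over a narrower range. It measured 0.897, 0.841 and 0.915 in BLJ cells, 0.790, 0.786 and 0.794 in JKD cells, 0.735, 0.746 and 0.773 in SCR cells, and 0.872, 0.797 and 1.07 in control cells. JKD and SCR arrays were again below all BLJ and control arrays, but the highest JKD array (0.794) and the lowest control array (0.797) nearly met. In the JKD line its 3 arrays had an SD of 0.00389, against 0.139 in the controls.

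AT1G30870 (PER7) had the widest range of the 4 genes, with control 3 at 2.61 times the level of SCR 2. The BLJ arrays read 1.24, 1.37 and 1.34, the JKD arrays 0.857, 0.818 and 0.867, the SCR arrays 0.746, 0.741 and 0.790, and the controls 0.952, 0.887 and 1.93. The BLJ arrays lay between control 3 and the other controls, and 1.43 times above the mean of controls 1 and 2. For this gene the control SD (0.587) exceeded that of the BLJ line (0.0703), the JKD line (0.0259) and the SCR line (0.0273).

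AT1G34510 (PER8) was close to the limit of the filter. It read 0.803, 0.804 and 0.861 in BLJ cells, 0.693, 0.699 and 0.732 in JKD cells, 0.643, 0.668 and 0.665 in SCR cells, and 0.701, 0.722 and 1.11 in control cells. The BLJ arrays stood above controls 1 and 2, and all SCR arrays were below every other array, whereas JKD overlapped with controls 1 and 2. Its mean over all arrays (0.758) passed the filter on dim probe sets, which stood at 0.735, through control 3. Without that array the mean was 0.722 and the filter 0.730, so that it left the test.

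**Figure D1:**
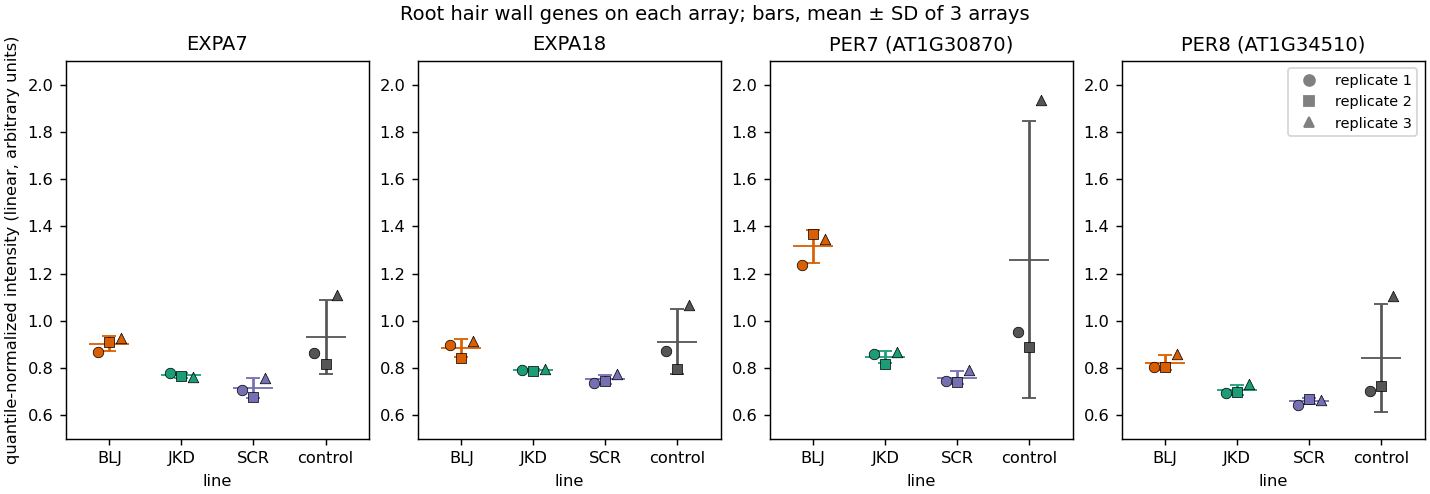
Quantile-normalized intensity (linear, arbitrary units; the axis starts at 0.5) of the 4 genes by line, with 1 symbol per array, its shape giving the replicate number, and bars for the mean ± SD of 3 arrays. Control 3 is the highest array for every gene, and the AT1G30870 (PER7) values of the BLJ line, 1.24 to 1.37, sit apart from the JKD and SCR values of 0.741 to 0.867.

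The same values can be given as the place of each probe set among all probe sets of an array, which after quantile normalization is a restatement and no second measurement. Brightness differs between probes for reasons other than RNA level, so a percentile is not an abundance and is compared here between arrays for 1 probe set at a time. EXPA7 lay at the 55.2 to 60.8 percentile on BLJ arrays, 37.8 to 42.3 on JKD arrays, 11.6 to 37.4 on SCR arrays and 48.6 to 71.5 on controls. AT1G30870 lay at the 76.2 to 79.8 percentile on BLJ arrays, 48.9 to 55.2 on JKD arrays, 32.6 to 44.3 on SCR arrays and 57.2 to 88.0 on controls. AT1G34510 reached down to the 3.10 to 8.58 percentile in the SCR line, where it was among the dimmest probe sets of the array, and up to 71.3 on control 3. EXPA18 ran between the 30.7 and 40.7 percentile in the SCR line and the 45.6 and 69.5 percentile in the controls. The files hold no detection calls, so whether a gene was above background on an array is not known here. In bulk RNA of a sort, fewer hair cells and less RNA per cell cannot be told apart.

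**Figure D2:**
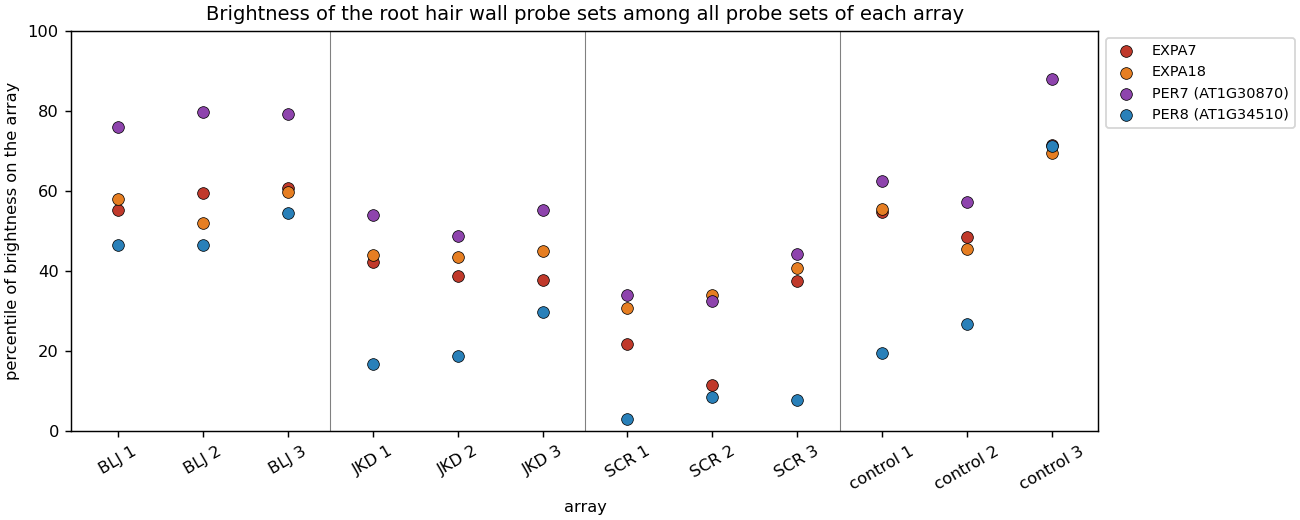
Percentile of brightness of each root hair wall probe set among the 22746 probe sets of the array, for the 12 arrays grouped by line. The 4 points of control 3 lie between 69.5 and 88.0, those of the SCR arrays between 3.10 and 44.3.

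In the BLJ line against the controls, none of the 4 genes passed limma's test at an adjusted p under 0.05, and 0 had an unadjusted p under 0.05. Over all 15922 probe sets tested, 4.26% passed. EXPA7 had a log2 fold change of −0.02 ± 0.05 (SE) and a 95% interval from −0.13 to 0.09, and EXPA18 had −0.02 ± 0.04. AT1G30870 had 0.08 ± 0.14 with an interval from −0.24 to 0.40, and AT1G34510 −0.01 ± 0.07. The median of the 4 was −0.01, beside 0.00 for all probe sets tested.

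Without control 3, AT1G30870 was higher in the BLJ line in limma's test, by 0.32 ± 0.04 with an adjusted p of 0.00169, where 4.95% of all probe sets passed. Of the 3 genes then tested, it was the single one called. Control 3 had been singled out by the values of these same genes, so the call is no independent support. EXPA7 had 0.06 and EXPA18 0.05 in that fit (adjusted p = 0.229 and 0.333). With the filter removed as well, a setting chosen after the data were seen, AT1G34510 was called higher too (0.11, adjusted p = 0.0106), where 4.06% of all probe sets were called. With control 3, BLJ 1 and BLJ 3 left out together, BLJ 2 alone stood for its line and its spread was taken from the other groups. AT1G30870 had 0.35 there. The call of AT1G30870 was not made without control 1 (−0.02) or without control 2 (−0.05).

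The mean of the JKD line lay below that of the controls in all 4 genes, but none was called, against 2.74% of all probe sets. For AT1G34510 the means nearly met without control 3, at 0.708 for JKD and 0.712 for the controls. EXPA7 had a log2 fold change of −0.15 ± 0.05 (interval −0.25 to −0.04, adjusted p = 0.123) and EXPA18 −0.11 ± 0.04 (adjusted p = 0.195). AT1G30870 had −0.30 ± 0.14 and AT1G34510 −0.12 ± 0.07 (adjusted p = 0.291 and 0.396). EXPA7, EXPA18 and AT1G30870 were lower with no overlap between arrays, which held for 11.3% of all probe sets. An unadjusted p under 0.05 was reached by 2 of the 4 genes and by 19.1% of all probe sets.

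The JKD and SCR lines were closer to the controls without control 3. In the JKD line EXPA7 then had −0.07, EXPA18 −0.04 and AT1G30870 −0.07, with 0 of 3 called where 2.17% of all probe sets were. AT1G34510, in the test again with no filter, had −0.0038 for JKD and −0.06 for SCR. On the deposited values with no further normalization, EXPA7 (−0.18) and EXPA18 (−0.15) were called lower in the JKD line. Their adjusted p-values in limma's test were 0.00259 and 0.00730. There 25.2% of all probe sets were called in either direction, 1924 of 15922 lower. EXPA7 and EXPA18 were also called lower when arrays were divided by their medians (−0.13 and −0.09). Of all probe sets, 26.4% were then called in either direction, 757 of them lower. Of the probe sets called in JKD against control, 52.1% and 82.0% were higher under these scalings, against 31.6% after quantile normalization.

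The SCR line was the lowest of the 4 groups for each gene, and again none was called in the comparison with the controls, against 0.396% of all probe sets. EXPA7 had −0.20 ± 0.05 (interval −0.30 to −0.09, adjusted p = 0.0842), EXPA18 −0.15 ± 0.04, AT1G30870 −0.38 ± 0.14 and AT1G34510 −0.17 ± 0.07. The adjusted p-values of the last 3 were 0.136, 0.226 and 0.269. With no offset added before the log, these differences were −0.37, −0.27, −0.63 and −0.32, again with 0 called. All 4 genes had an unadjusted p under 0.05, which 16.6% of all probe sets had, and all 4 were lower on every SCR array than on every control array, which held for 9.53%. The median of the 4 was −0.19, beside 0.00 for all probe sets tested.

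Without control 3 the SCR values were −0.13 for EXPA7, −0.08 for EXPA18 and −0.15 for AT1G30870, with 0 of 3 called where 0.239% of all probe sets were. On the deposited values EXPA7 (−0.20, adjusted p = 0.0154) and EXPA18 (−0.16, adjusted p = 0.0385) were called lower, where 0.389% of all probe sets were called. The deposited log2 values of SCR 2 had an SD of 0.67, close to that of the controls (0.68 to 0.70), where the other line arrays had 0.81 to 1.0. The deposited EXPA7 intensity was 0.742 on SCR 2, against 0.853 to 1.05 on the controls.

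The 3 lines that carried a UAS copy were also compared with one another. Each of these differences is taken between arrays other than the controls. The controls enter through the shared estimate of the spread, and through the normalization, the offset and the filter. Against the BLJ line, the JKD line was lower on every array for all 4 genes, which held for 10.4% of all probe sets, and the SCR line likewise, which held for 12.5%. None was called in limma's test over the 12 arrays, where 1.71% and 1.55% of all probe sets were. AT1G30870 had −0.38 ± 0.14 in JKD against BLJ and −0.47 ± 0.14 in SCR against BLJ (adjusted p = 0.299 and 0.148). EXPA7 had −0.13 ± 0.05 and −0.18 ± 0.05 in these comparisons, with adjusted p-values of 0.298 and 0.0893.

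Leaving control 3 out changed these calls. The array then left the normalization, the offset and the filter as well as the estimate of the spread. The SE of AT1G30870 was then 0.03, against 0.14 with all arrays, while its fold changes stayed close, at −0.39 in JKD against BLJ and −0.48 in SCR against BLJ. Both were called in limma's test, with adjusted p-values of 0.000151 and 4.26e-05. EXPA7 was also called in both (−0.13 and −0.18, adjusted p = 0.0132 and 0.0023). EXPA18 was called in SCR against BLJ (−0.13, adjusted p = 0.0138), and in JKD against BLJ it had −0.09 (adjusted p = 0.0712). Of 3 genes tested, 2 were thus called in JKD against BLJ and 3 in SCR against BLJ, where 2.96% and 3.62% of all probe sets were. Control 3 was left out because of the values of these same genes, which by itself lowers their spread. The p-values without it are therefore no independent support for a difference.

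A fit on the 6 arrays of the compared lines alone gave 3 of 4 genes lower in JKD against BLJ and 4 of 4 lower in SCR against BLJ, where 2.23% and 1.59% of all probe sets were called. There AT1G30870 had adjusted p-values of 0.00296 and 0.00392 in limma's test, and AT1G34510, with −0.11 and −0.16, had 0.0267 and 0.0106. The normalization and the filter of this fit were those of all arrays. AT1G34510 had passed that filter only through control 3, an array of neither line, so its calls depend on that array. EXPA18 was the gene not called in JKD against BLJ. With control 3, BLJ 1 and BLJ 3 left out, BLJ 2 alone stood for its line. AT1G30870 then had −0.41 in JKD against BLJ and −0.50 in SCR against BLJ, and EXPA7 had −0.19 in SCR against BLJ.

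The SCR line was in turn below the JKD line on every array for all 4 genes, which held for 10.6% of all probe sets. The steps were small: −0.05 ± 0.05 for EXPA7 (interval −0.16 to 0.05), −0.04 ± 0.04 for EXPA18, −0.08 ± 0.14 for AT1G30870 (interval −0.40 to 0.23) and −0.05 ± 0.07 for AT1G34510. None was called, against 0.49% of all probe sets, and none without control 3, against 0.873%. The order of group means for EXPA7 and EXPA18 was thus control, BLJ, JKD and SCR from high to low. The controls came first only through control 3. Without it their means were 0.840 for EXPA7 and 0.834 for EXPA18, below the BLJ means of 0.902 and 0.884. For AT1G30870 the BLJ mean (1.32 ± 0.0703) stood above the control mean (1.26 ± 0.587), and for AT1G34510 these were 0.823 ± 0.0332 and 0.843 ± 0.228. For the neighbours in this order, BLJ and control, and SCR and JKD, the 95% interval of the difference included 0 for each of the 4 genes with all 12 arrays in the fit. On the 6 arrays of SCR and JKD alone the adjusted p-values lay between 0.106 and 0.337.

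**Figure D3:**
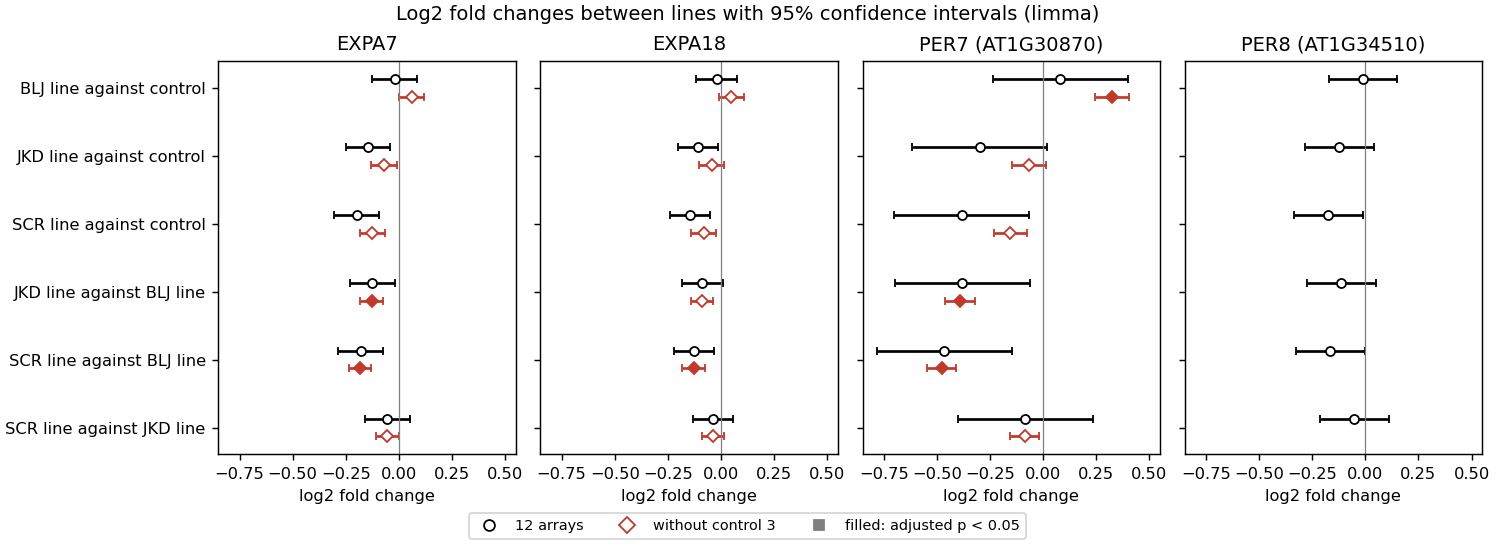
Log2 fold change (horizontal axis) with its 95% confidence interval for each gene in the 6 comparisons, from limma with all 12 arrays (circles) and without control 3 (diamonds); filled symbols have an adjusted p under 0.05, and AT1G34510 (PER8) fell below the filter without control 3. The intervals of AT1G30870 (PER7) narrow without control 3, and its symbols are then filled for BLJ against control (0.32), JKD against BLJ (−0.39) and SCR against BLJ (−0.48).

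The 4 genes varied together from array to array. Over the 12 arrays the 6 pairs had Pearson's r between 0.933 and 0.965 and Spearman's rho between 0.895 and 0.972. The permutation p-values of r, two-sided and adjusted over the 6 pairs, lay between 1.5e-05 and 9e-05, and 1e-05 is the smallest unadjusted value that the permutations could give. Arrays were permuted without regard to their group, so these p-values do not measure covariation within lines. With the 2 arrays farthest from the median of the first gene left out, control 3 among them in every pair, r was between 0.796 and 0.961. Because the 4 genes move together, 4 genes lower in a line are not 4 independent observations of that line.

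Much of this shared variation lay between the groups and in control 3. After the group means were removed, r was between 0.912 and 0.974 with all arrays. Without control 3 it fell to between 0.11 and 0.796, the highest for EXPA7 with AT1G30870 and the lowest for EXPA7 with AT1G34510. Groups of 3 arrays are too few to give a correlation within each line. Control 3 exceeded the mean of controls 1 and 2 by 0.23 for EXPA7, 0.20 for EXPA18, 0.70 for AT1G30870 and 0.35 for AT1G34510 on the log2 scale. Larger excesses were found for 6.22%, 7.42%, 0.333% and 3.02% of the probe sets tested.

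**Figure D4:**
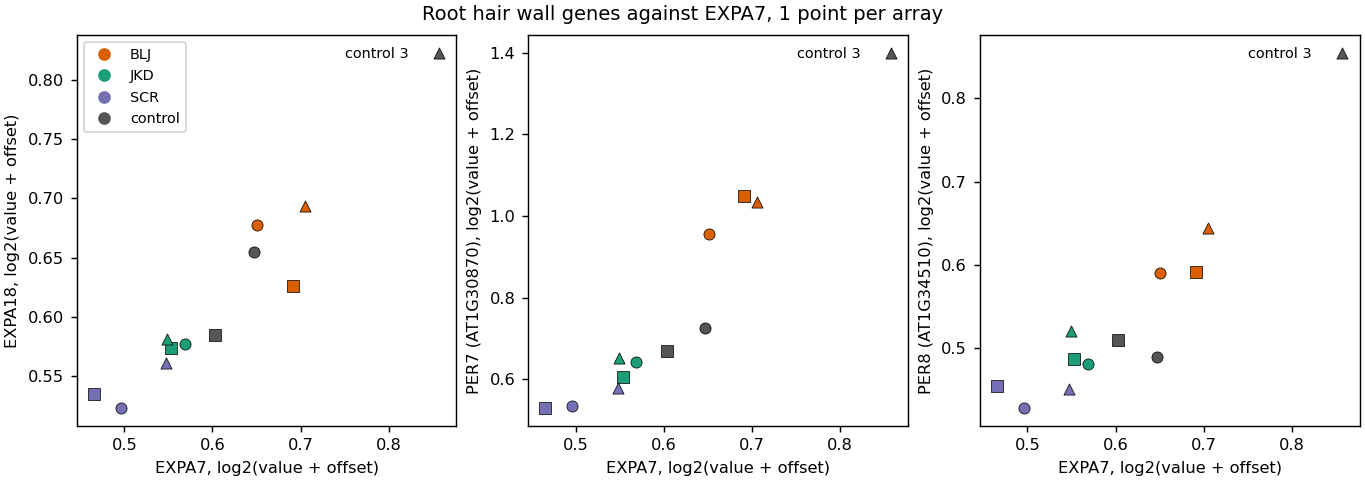
Log2(value + offset) of EXPA18, AT1G30870 (PER7) and AT1G34510 (PER8) against that of EXPA7, 1 point per array, coloured by line and shaped by replicate as in the plot of values by line. The SCR arrays are at the low end and control 3 at the high end of every panel, while controls 1 and 2 lie between the JKD and BLJ arrays in EXPA7, with Pearson's r between 0.933 and 0.963 for the 3 pairs shown.

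Among the 8868 other tested probe sets with 1 gene, the root hair wall genes were among the closest to one another over the 12 arrays, and less so without control 3. AT1G30870 ranked 3 and EXPA18 ranked 5 in likeness to EXPA7 by Pearson's r over the 12 arrays, and AT1G34510 ranked 10. AT1G34510 was the gene most like AT1G30870. Outside the 4, the genes most like EXPA7 were AT3G07900 (r = 0.97), GH9C1 (0.97) and AT2G41970 (0.96). All of these were picked for their likeness to EXPA7 over these same arrays, so their values are no independent support. GH9C1 is a cell wall endoglucanase known from root hairs. It was at 0.688 to 0.781 in SCR cells, against 0.801 to 1.19 in control cells. In that comparison 9.53% of all probe sets were lower with no overlap between arrays. AT3G07900 measured 1.05, 1.06 and 1.09 on BLJ arrays, 0.897, 0.895 and 0.899 on JKD arrays, 0.856, 0.850 and 0.949 on SCR arrays, and 1.07, 0.970 and 1.25 on controls.

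The same 3 genes headed the list for EXPA18, with r of 0.96 for GH9C1, 0.96 for AT2G41970 and 0.95 for AT3G07900. For AT1G34510 the closest were AT3G49960 (0.97), AT4G25790 (0.96) and AT2G41970 (0.95), and for AT1G30870 they were AT2G33490 (0.96), AT3G12540 (0.95) and AT3G17680 (0.95). Spearman's rho for these 12 pairs lay between 0.867 and 0.951. All 12 arrays share the sort and the platform, and control 3 carries weight in each r. Over the 11 arrays without it, a setting chosen after the data were seen, AT3G07900 was still first for EXPA7 (r = 0.96) and for EXPA18 (0.93), while AT2G47540 (0.98) and AT2G47950 (0.97) came first for AT1G30870 and AT1G34510. EXPA18 then ranked 11, AT1G30870 ranked 8 and AT1G34510 ranked 29 in likeness to EXPA7. In likeness to EXPA18, EXPA7 ranked 4, AT1G30870 ranked 34 and AT1G34510 ranked 41. For AT1G30870 the ranks were 2 (AT1G34510), 10 (EXPA7) and 55 (EXPA18). For AT1G34510 they were 6 (AT1G30870), 111 (EXPA7) and 115 (EXPA18).

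Other genes known from root hairs gave little further information, since 4 of 48 listed genes have a named probe set here and 2 passed the filter. SCN1, a RhoGDI that keeps hair initiation to 1 site per cell, was bright, between 1.97 and 2.47 on all arrays, and TRY, a MYB-type regulator of epidermal cell fate, was dim, between 0.665 and 0.787. Neither was called in any of the 6 comparisons: SCN1 had 0.06, −0.06 and −0.04 in the BLJ, JKD and SCR lines against the controls, and TRY had 0.05, 0.04 and 0.07. SCN1 had −0.12 and −0.10 in JKD and SCR against BLJ, without a call. Other scalings turned its sign in JKD and SCR. With the deposited values SCN1 had 0.39, 0.26 and 0.15 in BLJ, JKD and SCR against control. After division by medians it had 0.46, 0.33 and 0.19. The BLJ difference was called in limma's test under both (adjusted p = 0.0416 and 0.0384), where 18.5% of all probe sets were called. Of the probe sets called, 52.2% and 80.4% were higher. XTH26, a xyloglucan-modifying enzyme of root hairs, fell below the filter. It was highest on control 3 (0.772), against 0.659 to 0.720 on the other arrays. RSL3, a bHLH regulator of hair growth, also fell below the filter and was lowest on control 3 (0.647, against 0.655 to 0.726). Of 6 listed genes of non-hair epidermal cells and 4 of the root cap, 0 have a named probe set here.

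Of 23 other alpha expansin genes listed, 8 were measured and 6 tested. Over all probe sets 2.74% were called in JKD against control and 1.71% in JKD against BLJ. EXPA8 was called lower in the JKD line against the controls (−0.26 ± 0.06, adjusted p = 0.0313) and against the BLJ line (−0.29 ± 0.06, adjusted p = 0.0201), and it was the single member called in the 6 comparisons. It measured 1.07, 1.12 and 1.03 in the JKD line, against 1.32, 1.40 and 1.58 in the controls, and 1.34, 1.56 and 1.46 in the SCR line, so that in SCR against the controls it had 0.02. EXPA9 (−0.40, −0.02 and 0.09 in the BLJ, JKD and SCR lines against the controls) and EXPA15 were not called. Against the controls the 6 tested genes had median log2 fold changes of −0.01 (BLJ), −0.03 (JKD) and 0.01 (SCR), beside 0.00, 0.01 and 0.00 for all probe sets tested.

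The markers of the sorted tissue were few. Of 4 measured cortex genes, AT1G09750 (0.47 ± 0.10) and the nitrate transporter gene AT3G21670 (0.13 ± 0.03) were higher in the BLJ line against the controls, and 0 were called in the JKD or SCR lines. Of all probe sets, 4.26%, 2.74% and 0.396% were called in BLJ, JKD and SCR against control. Control 3 was the lowest control for AT1G09750 (0.995, against 1.60 and 1.52) and the highest for AT3G21670 (0.983, against 0.915 and 0.895). A fit of these genes without it is not given. AT3G21670 was called lower in both JKD and SCR against BLJ (−0.18 and −0.15), and AT1G09750 had −0.22 and −0.32 there without a call. The cortex gene AT1G62510 was not called in any comparison. Of the endodermis list 3 of 13 genes were measured, SGN1 (AT1G61590), GSO1 and EN7 (AT4G28100), and 0 were called in the 6 comparisons. SGN1 was at 6.71 on control 3, the highest array, against 5.63 and 5.46 on the other controls. OPS, a phloem gene and the single measured gene of 7 in the stele list, was lower in the BLJ line (−0.12 ± 0.03, adjusted p = 0.0372). Whether the number of epidermal cells in each sort moved with the root hair wall genes was not tested, since no count of cells is given here.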

How the data were processed

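The authors computed the deposited intensities with MAS5, per the submitters' processing notes, which give no version, scaling or centring. Intensities lay between 0.513 and 44.2 as deposited, with 66.1% of them under 1. Groups and replicate numbers came from the array titles, and 0 columns were left unused.

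The 55 control probe sets were left out and the rest quantile-normalized, since array medians and spreads differed. Values were taken to log2(value + 0.703), the 20th percentile, so fold changes of these dim genes are understated. The dimmest 30% by mean were left out, and 15922 of 22746 were tested. limma 3.58.1 in R 4.3.3 fitted a mean per group over 12 arrays, with trend and robust moderation and Benjamini-Hochberg adjustment over all tested, and was tested on simulated data. Every adjusted p of a gene is from it. The number of arrays limits the precision. Names came from the platform's annotation, updated through RefSeq (TAIR10.1). Of the probe sets 503 have several genes and 8730 are unnamed.

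The 4 genes and all lists were chosen with earlier results of these data known. Lists are described by counts, the genes called and their brightest 3 members, and likeness by the 3 highest r. The heat shock list, AT1G34510 without the filter, XTH26, RSL3 and the array values of AT3G07900, GH9C1 and EXPA8 were added after values were seen.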

Additional observations from a re-analysis of the deposited data

How the results depend on the processing

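With all 12 arrays and quantile normalization, 0 of the 4 genes were called in any of the 6 comparisons, and the counts depended on the scaling and on control 3. On the deposited values and after division by array medians, 2 and 2 genes were called in JKD against control, 2 and 1 in SCR against control, 1 and 1 in JKD against BLJ and 1 and 2 in SCR against BLJ. Of all probe sets, 25.2% and 26.4% were then called in JKD against control, 0.389% and 0.314% in SCR against control, 2.15% and 1.97% in JKD against BLJ and 2.07% and 2.28% in SCR against BLJ, and in BLJ against control 18.5% under both. With the 6 arrays of the compared lines alone, 3 were called in JKD against BLJ and 4 in SCR against BLJ. AT1G34510 was among them in both, and it had passed the filter only through control 3. With the replicate number as a block, 1 was called in SCR against control and 1 in SCR against BLJ (EXPA7 in both, −0.20 and −0.18, adjusted p = 0.0423 and 0.0320), where 1.29% and 4.01% of all probe sets were, and no other call of the 4 genes changed. Same-numbered arrays deviated together at r over 0.1 in 12 of 18 pairs (−0.19 to 0.62), and 9 of 18 were closest to their own number, so the numbers were not taken to pair the arrays. With control 3, BLJ 1 and BLJ 3 left out together, BLJ 2 alone stood for its line, so no count is given for its comparisons. With single arrays left out, the counts ran from 0 to 1 in BLJ against control, from 0 to 2 in JKD against control, SCR against control and JKD against BLJ, and from 0 to 3 in SCR against BLJ. The nonzero ones came without control 2 (2 in JKD and 2 in SCR against control) or without control 3 (1 in BLJ against control, 2 in JKD against BLJ and 3 in SCR against BLJ, or 2, 3 and 4 with no filter). Without control 3, 4.95%, 2.96% and 3.62% of all probe sets were called in those comparisons. With no filter as well, 4.06% were in BLJ against control. For the counts without control 2, and for the 3 and 4 with no filter, no such share is given here. They are therefore not read as results about the genes. In SCR against JKD, 0 were called under every setting.

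The direction of the small differences in BLJ against control turned under several settings. EXPA7 and EXPA18 had log2 fold changes of 0.013 and 0.0069 after division by array medians, 0.059 and 0.048 without control 3 (the same with no filter), and 0.066 and 0.0069 without those 3 arrays. AT1G30870 had −0.021 without control 1 and −0.050 without control 2, and AT1G34510 had 0.00048 without BLJ 1 and 0.11 without control 3 and with no filter. With single arrays left out, EXPA7 lay between −0.072 and 0.059, EXPA18 between −0.075 and 0.048, AT1G30870 between −0.050 and 0.32, and AT1G34510 between −0.076 and 0.00048. The differences of the JKD and SCR lines from the controls and from BLJ kept their sign under every setting that gave a value. With values below 1 set to 1, EXPA7, EXPA18 and AT1G34510 lay at 1 on all arrays but control 3 and gave no value between lines, and the robust option could not be fitted. AT1G34510 left the test with the stricter filter, without control 3 and without those 3 arrays. With no offset the differences other than BLJ against control were 1.59 to 2.03 times as large on the log2 scale, with 0 called. SCN1 turned to higher in JKD and SCR against control on the deposited and median-divided values, without a call. The causes were not tested.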
